A study of Rattus norvegicus with 9 samples.

Results

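Chemokines are small secreted proteins that steer leukocytes, and 10 of the 18629 genes in the deposited expression table were examined here as the CXC family and its closest relative. The members were taken by gene symbol: Cxcl1, Cxcl2, Cxcl3, Cxcl6, Cxcl9, Cxcl10, Cxcl11, Cxcl12, Cxcl16 and the CX3C ligand Cx3cl1. Of these, 9 passed the filter on low counts, and Cxcl9 did not. Cxcl2, Cxcl3 and Cxcl6 passed only through the Yap1 WT and Yap1 shRNA libraries, because none of their GFP values reached the filter's level of 0.904 counts scaled to library size. A gene that passes in this way has to differ from GFP, so the differences of these 3 genes from GFP are given as descriptions, with no test.

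The cells were cardiomyocytes isolated from Sprague-Dawley rats 1 to 2 days old and infected with an adenovirus. One virus carried wild-type Yap1 (Yap1 WT, 3 libraries), the transcriptional co-activator at the end of the Hippo pathway. Another carried a short hairpin RNA against Yap1 (Yap1 shRNA, 3 libraries), and the reference virus carried green fluorescent protein (GFP, 3 libraries). All 3 groups had been plated for 18 to 20 h in 10% serum and kept for 14 h in 1% serum with 1 g/L glucose. They then spent 48 h in 33 mM glucose with 100 nM insulin. No virus with a control hairpin was among the samples, so the hairpin against Yap1 and the presence of any hairpin cannot be told apart. Virus dose, the number of separate cell isolations and sequencing batches are not given in the sources used here, so p-values measure only the spread between these samples, which may be technical.

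Chemokines with an ELR sequence before the first cysteine, such as Cxcl1, Cxcl2, Cxcl3 and Cxcl6, bind Cxcr2 and draw neutrophils. Their genes are textbook targets of NF-kappa-B downstream of interleukin-1, tumour necrosis factor and Toll-like receptors. Cxcl9, Cxcl10 and Cxcl11 lack that sequence, bind Cxcr3 on activated T cells and natural killer cells, and are induced by interferons. Cxcl12 is made constitutively by stromal cells and signals through Cxcr4, with Ackr3 as a scavenging receptor. Cxcl16 and Cx3cl1 are made as membrane-anchored proteins on a mucin stalk, and the proteases Adam10 and Adam17 release their soluble forms. In heart muscle these ligands are known mostly for bringing leukocytes into injured tissue.

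The 250 bases upstream of the annotated start were available from RefSeq (rat build GRCr8) for 9 of the 10 members, the exception being Cxcl3. They are shown because the members differ in which regulatory letters these windows hold. Capitals mark matches, on either strand, to an NF-kappa-B type motif (GGGANNTTC) or an interferon-stimulated response element type motif (GAAANNGAA). Each window reads 5′ to 3′ on the gene's own strand and ends at the base before the start.
Cxcl1, chr14:17479322-17479571, minus strand: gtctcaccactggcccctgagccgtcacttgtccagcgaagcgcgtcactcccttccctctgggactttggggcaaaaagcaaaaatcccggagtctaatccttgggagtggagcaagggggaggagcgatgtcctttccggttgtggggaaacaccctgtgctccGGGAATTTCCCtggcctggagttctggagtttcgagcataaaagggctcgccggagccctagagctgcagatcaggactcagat
Cxcl6, chr14:17596418-17596667, minus strand: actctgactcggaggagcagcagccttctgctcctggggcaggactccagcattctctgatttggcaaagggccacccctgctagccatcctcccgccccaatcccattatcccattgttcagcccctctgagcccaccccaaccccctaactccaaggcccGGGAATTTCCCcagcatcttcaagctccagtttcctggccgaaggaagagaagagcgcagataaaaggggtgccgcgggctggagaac
Cxcl10, chr14:15988816-15989065, plus strand: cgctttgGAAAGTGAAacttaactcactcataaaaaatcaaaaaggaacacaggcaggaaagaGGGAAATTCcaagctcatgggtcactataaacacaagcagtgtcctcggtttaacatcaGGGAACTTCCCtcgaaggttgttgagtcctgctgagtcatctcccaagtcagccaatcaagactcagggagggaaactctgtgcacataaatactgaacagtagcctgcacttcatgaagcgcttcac
Cxcl11, chr14:15973478-15973727, plus strand: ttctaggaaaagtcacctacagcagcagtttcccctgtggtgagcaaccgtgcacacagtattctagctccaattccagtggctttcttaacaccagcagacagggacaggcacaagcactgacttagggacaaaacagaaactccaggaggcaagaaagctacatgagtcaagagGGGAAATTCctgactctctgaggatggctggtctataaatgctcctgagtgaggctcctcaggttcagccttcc
Cxcl12, chr4:152060531-152060780, plus strand: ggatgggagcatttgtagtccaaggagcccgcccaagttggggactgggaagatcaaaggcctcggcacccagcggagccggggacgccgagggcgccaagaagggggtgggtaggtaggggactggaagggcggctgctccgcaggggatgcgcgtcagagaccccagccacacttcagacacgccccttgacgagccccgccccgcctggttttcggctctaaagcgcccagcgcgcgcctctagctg

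The NF-kappa-B type letters stood in the windows of 5 members, Cxcl1, Cxcl6, Cxcl9, Cxcl10 and Cxcl11, and in 3.36% of the 33469 rat promoter windows of the same length. In Cxcl1 the match began 84 bases before the start and in Cxcl6 88 bases before it, each overlapped by a match on the other strand. Cxcl10 had 3 such matches, of which 2 overlap. The interferon element type letters stood in 1 member, Cxcl10, beginning 243 bases before its start, and in 8.12% of all windows. A GAS type motif (TTCNNNGAA, the form bound by STAT dimers) was in 1 member, Cxcl11, and in 7.67% of windows, and an AP-1 type motif (TGANTCA) was in 2, Cxcl10 and Cxcl11, and in 6.34% of windows. The TEAD type motif GGAATG, which belongs to the DNA-binding partners of Yap1, was in 0 of the 9 member windows and in 12.1% of all windows. None of the 5 motifs was in the windows of Cxcl2, Cxcl12, Cxcl16 and Cx3cl1. Only exact matches were counted: the Cxcl2 window, not printed here, holds GGGATTTCC, which differs from the NF-kappa-B type motif in 1 letter. A window without a match can therefore still hold similar letters. Each match describes letters in this window, and binding was not measured.

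The libraries held 10960051 to 11497104 counts in Yap1 WT, 6103221 to 6357403 in Yap1 shRNA and 14868180 to 15368473 in GFP. Yap1 itself averaged 664 ± 132 CPM (counts scaled to library size) in Yap1 WT, 95.6 ± 0.36 CPM in Yap1 shRNA and 195 ± 4.37 CPM in GFP (SD, n = 3 each), in the order the labels give. Summed CPM of 10 cardiomyocyte markers, all detected in every group, was 5710 to 9434 in Yap1 WT, 1755 to 1984 in Yap1 shRNA and 33930 to 35100 in GFP libraries. Summed CPM of 9 fibroblast markers was 12350 to 16740 in Yap1 WT, 7655 to 8381 in Yap1 shRNA and 18580 to 19780 in GFP, so these cultures also held non-myocyte RNA. In such bulk samples fewer cells of a type and less RNA per cell cannot be told apart. Most genes in this data set differ between groups: at an adjusted p under 0.05, 63.8% of the 13708 genes tested were called in Yap1 WT against GFP, 78.3% in Yap1 shRNA against GFP and 62.5% in Yap1 WT against Yap1 shRNA.

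Cxcl1 rose by 7.14 on the log2 scale in Yap1 WT and by 6.55 in Yap1 shRNA against GFP, and the other neutrophil-attracting genes were close to the limit of detection in GFP and well detected in both Yap1 groups. Cxcl10 rose by more in Yap1 WT than in Yap1 shRNA, Cxcl11 rose in Yap1 WT alone among the comparisons with GFP, and the constitutive and membrane-anchored members rose by smaller factors. All values below are counts scaled by edgeR's TMM factors and given as CPM, and tests are edgeR's two-sided quasi-likelihood tests whose p-values were adjusted by Benjamini and Hochberg's method across the 13708 genes. Of the 6 members that reached the filter's level in GFP, 6 were called higher in Yap1 WT than in GFP, where 32% of all genes were called higher. In Yap1 shRNA against GFP 5 of the 6 were higher, against 39.2% of all genes. In Yap1 WT against Yap1 shRNA 7 of the 9 members tested were higher, against 31.2%. None of the 6 was called lower than GFP in Yap1 WT or Yap1 shRNA, where 31.8% and 39.1% of all genes were. None of the 9 was called lower in Yap1 WT against Yap1 shRNA, against 31.3% of all genes. The median log2 fold change of those 6 members was 2.61 in Yap1 WT against GFP and 1.57 in Yap1 shRNA against GFP, and over all genes tested the medians were 0.00286 and -0.0119. In Yap1 WT against Yap1 shRNA the median of the 9 members was 0.81, beside 0.0374 over all genes. The 2 comparisons with GFP share the GFP libraries, and the values of each are therefore given side by side.

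**Figure D1:**
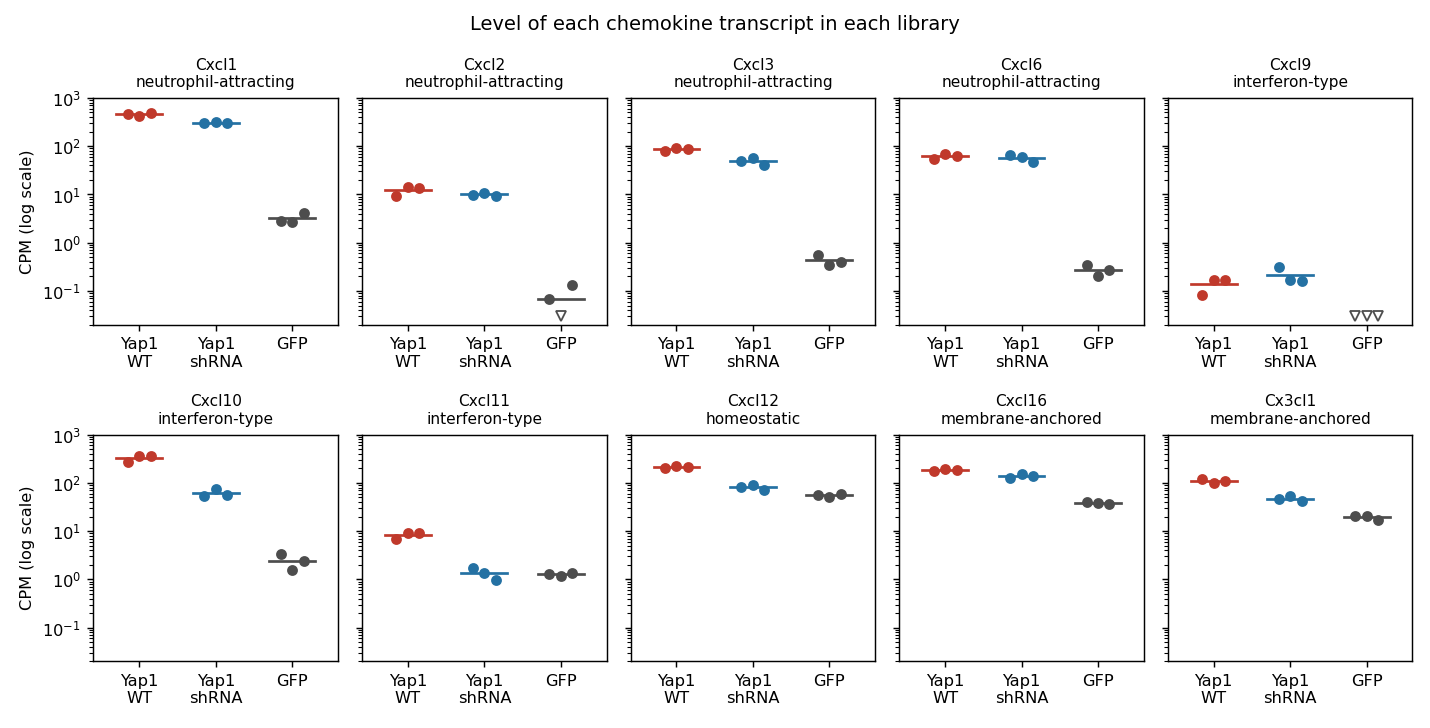
Level of each of the 10 chemokine transcripts (CPM, log axis) in the 9 libraries, with Yap1 WT, Yap1 shRNA and GFP from left to right. Points are libraries, bars are group means, and open triangles at the bottom are libraries with 0 counts. The neutrophil-attracting genes lie at similar heights in both Yap1 groups, while Cxcl10 and Cxcl11 are highest in Yap1 WT.

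Cxcl1, a main neutrophil attractant of rodents, was the most abundant member in both Yap1 groups. It had 467, 426 and 478 CPM in the Yap1 WT libraries, 298, 314 and 299 CPM in the Yap1 shRNA libraries, and 2.78, 2.71 and 4.21 CPM in the GFP libraries. Both Yap1 groups stood far above GFP, and the lowest Yap1 WT library was above the highest Yap1 shRNA library. The log2 fold change was 7.14 (SE 0.111, edgeR adjusted p = 4.12e-13) in Yap1 WT against GFP and 6.55 (SE 0.112, adjusted p = 6.59e-13) in Yap1 shRNA against GFP. Between Yap1 WT and Yap1 shRNA it was 0.59 (SE 0.0729, edgeR adjusted p = 1.38e-05), a 1.51-fold difference.

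Cxcl3, another Cxcr2 ligand, had 79.9, 92.3 and 89.2 CPM in Yap1 WT, 50.02, 57.5 and 41.4 CPM in Yap1 shRNA, and 0.555, 0.338 and 0.408 CPM in GFP. The 3 groups did not overlap, and the GFP values rest on 8, 5 and 6 counts. The fitted log2 fold change from GFP was 7.62 (SE 0.181) in Yap1 WT and 6.80 (SE 0.198) in Yap1 shRNA, and on log2(TPM + 1) these were 6.35 and 5.58. Between Yap1 WT and Yap1 shRNA it was 0.81 (SE 0.0999, edgeR adjusted p = 1.31e-05).

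Cxcl6, which in the rat also goes under the symbol Cxcl5, had 54.5, 69.3 and 61.4 CPM in Yap1 WT, 66.0, 59.6 and 47.4 CPM in Yap1 shRNA, and 0.347, 0.203 and 0.272 CPM in GFP. Both Yap1 groups lay above GFP and overlapped each other, and the GFP values rest on 5, 3 and 4 counts. The fitted log2 fold change from GFP was 7.76 (SE 0.224) in Yap1 WT and 7.66 (SE 0.232) in Yap1 shRNA, and on log2(TPM + 1) these were 5.997 and 6.097. Between Yap1 WT and Yap1 shRNA it was 0.10 (SE 0.112, edgeR adjusted p = 0.468) and not called, and its sign turned to -0.10 on log2(TPM + 1).

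Cxcl2, the least abundant of the Cxcr2 ligands here, had 112, 163 and 156 counts in Yap1 WT, 62, 65 and 59 counts in Yap1 shRNA, and 1, 0 and 2 counts in GFP. As CPM the group means were 12.2 ± 2.54 in Yap1 WT and 10.1 ± 0.756 in Yap1 shRNA (SD, n = 3 each), which overlapped, and 0.0684 in GFP. With 3 counts in GFP, the depth-scaled ratio to GFP was 178 (95% exact counting interval 60.4 to 866) for Yap1 WT and 148 (49.9 to 724) for Yap1 shRNA, and these intervals cover counting error only. The fitted log2 fold change of Yap1 WT from GFP was 7.25, which became 8.04 without GFP replicate 3 and 4.22 on log2(TPM + 1). The fitted difference between Yap1 WT and Yap1 shRNA was 0.27 on the log2 scale (SE 0.188, edgeR adjusted p = 0.235). Without Yap1 WT replicate 1, the lowest of its group, it was 0.44 with an adjusted p of 0.0459.

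These 4 genes are paralogs in a single cluster on chromosome 14. Their sequence identity was not computed here, and where they share reads the authors' counting could divide them, which leaves single-gene values uncertain. The log2 ratio of Cxcl3 to Cxcl1 averaged -2.39 in Yap1 WT, -2.63 in Yap1 shRNA and -2.90 in GFP, with overlapping groups in each comparison. For Cxcl6 to Cxcl1 it averaged -2.89 in Yap1 WT, -2.41 in Yap1 shRNA and -3.56 in GFP. Yap1 shRNA did not overlap GFP in that ratio (difference 1.15), while Yap1 WT overlapped both. Cxcl6 has 12 counts in the whole GFP group and passed the filter only through the Yap1 groups. Its ratio against GFP is therefore given as a description. Such ratios do not depend on library scaling. For each a two-sided exact permutation test was run over 18 ratio comparisons, and 3 libraries against 3 cannot give a p below 0.1, or below 0.164 after adjustment here.

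Between Yap1 WT and Yap1 shRNA the log2 fold changes of the interferon-type members tested were 2.44 and 2.63, beside 0.10 to 0.81 for the neutrophil-attracting ones. Cxcl10, a Cxcr3 ligand, had 267, 361 and 367 CPM in Yap1 WT, 54.2, 73.9 and 54.9 CPM in Yap1 shRNA, and 3.40, 1.56 and 2.38 CPM in GFP. The 3 groups did not overlap, with Yap1 shRNA between the others. The log2 fold change was 7.08 (SE 0.208, edgeR adjusted p = 3.8e-11) in Yap1 WT against GFP and 4.64 (SE 0.233, adjusted p = 9.13e-10) in Yap1 shRNA against GFP. Between Yap1 WT and Yap1 shRNA it was 2.44 (SE 0.149, edgeR adjusted p = 2.81e-08), a 5.44-fold difference.

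Cxcl11, which binds Cxcr3 and Ackr3, had 6.79, 9.23 and 9.32 CPM in Yap1 WT, 1.76, 1.35 and 0.966 CPM in Yap1 shRNA, and 1.32, 1.15 and 1.36 CPM in GFP. Yap1 WT stood above both other groups, which overlapped. Its log2 fold change was 2.72 (SE 0.207, edgeR adjusted p = 1.55e-07) in Yap1 WT against GFP and 2.63 (SE 0.245, adjusted p = 1.07e-06) in Yap1 WT against Yap1 shRNA. In Yap1 shRNA against GFP it was 0.09 (SE 0.306, edgeR adjusted p = 0.814), which was not called, and its sign turned to -0.05 with upper quartile scaling and to -0.14 without Yap1 shRNA replicate 1.

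Cxcl9, the third Cxcr3 ligand, stayed near the limit of detection. It had 1, 2 and 2 counts in Yap1 WT, 2, 1 and 1 counts in Yap1 shRNA, and 0 counts in every GFP library. Over a floor of 3 counts for the GFP group, the depth-scaled ratio was 2.06 for Yap1 WT and 3.18 for Yap1 shRNA. These ratios rest on 5 and 4 counts and leave out their counting error, so they are not lower bounds. In the authors' deposited table its q was 0.207 in Yap1 WT against GFP and 0.105 in Yap1 shRNA against GFP. Its promoter window held the NF-kappa-B type letters but not the interferon element type letters.

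**Figure D2:**
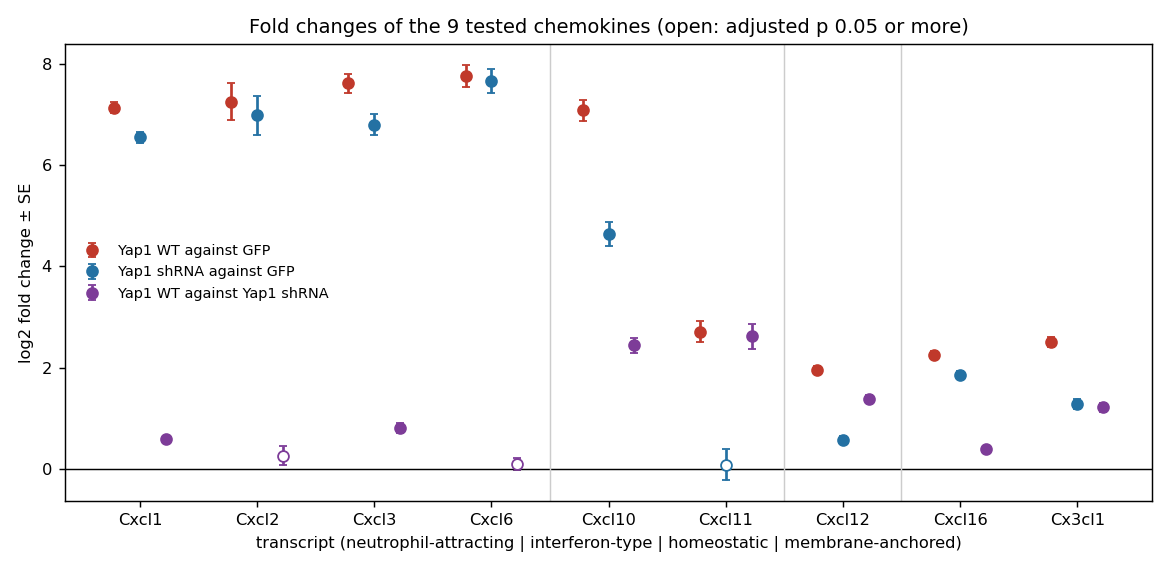
The log2 fold change (± SE) of the 9 tested members in Yap1 WT against GFP, Yap1 shRNA against GFP and Yap1 WT against Yap1 shRNA, from left to right for each gene. Open symbols have an adjusted p of 0.05 or more. Cxcl2, Cxcl3 and Cxcl6 passed the count filter only through the Yap1 groups, so their values against GFP are descriptions. Cxcl1 is at 7.14 and 6.55 against GFP, while Cxcl10 is at 7.08 in Yap1 WT and 4.64 in Yap1 shRNA.

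The ratio of Cxcl10 to Cxcl1 reads within each library put this contrast in numbers free of scaling. Its log2 value was -0.81, -0.24 and -0.38 in Yap1 WT, -2.46, -2.09 and -2.44 in Yap1 shRNA, and 0.29, -0.80 and -0.82 in GFP. Yap1 WT and GFP overlapped, and every Yap1 shRNA library lay below both. The mean difference was 1.85 in Yap1 WT against Yap1 shRNA and -1.89 in Yap1 shRNA against GFP, each at the smallest p the exact permutation test allows (p = 0.1, adjusted 0.164). In Yap1 WT against GFP it was -0.03 (exact permutation p = 0.9).

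The ratio of Cxcl11 to Cxcl10 was lower in every Yap1 WT and Yap1 shRNA library than in GFP. For each Cxcl10 read there were 0.0255 Cxcl11 reads in Yap1 WT, 0.0224 in Yap1 shRNA and 0.523 in GFP. The log2 ratio differed from GFP by -4.43 in Yap1 WT and by -4.65 in Yap1 shRNA (exact permutation p = 0.1 each, adjusted 0.164), without overlap. Cxcl10 and Cxcl11 lie on the plus strand inside the span of Art3, a minus-strand gene, in the deposited coordinates. Art3 had 113, 80.0 and 97.2 CPM in Yap1 WT, 17.4, 24.5 and 22.4 CPM in Yap1 shRNA, and 310, 357 and 345 CPM in GFP. The strand of the counting is not given in the sources used here, so reads of Art3 and of both chemokines cannot be told apart where they overlap, and the part of Art3 reads in the low GFP levels of Cxcl11 and Cxcl10 was not tested.

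**Figure D3:**
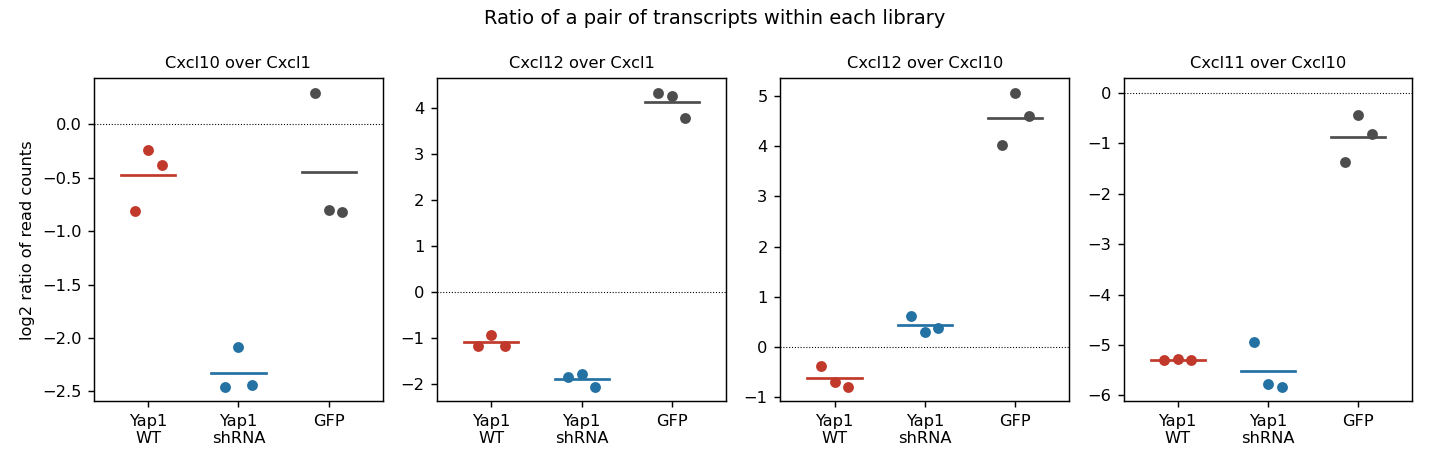
Log2 ratio of the read counts of a pair of chemokines within each library, with Yap1 WT, Yap1 shRNA and GFP from left to right; points are libraries and bars are group means. The Cxcl10 to Cxcl1 ratio is lowest in Yap1 shRNA at a mean of -2.33, and the Cxcl12 to Cxcl1 ratio is 4.12 in GFP.

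Cxcl12, the homeostatic member, had 205, 223 and 211 CPM in Yap1 WT, 82.6, 91.1 and 71.5 CPM in Yap1 shRNA, and 55.4, 52.0 and 57.8 CPM in GFP. The 3 groups did not overlap. Its log2 fold change was 1.95 (SE 0.0755, edgeR adjusted p = 4e-10) in Yap1 WT against GFP, 0.57 (SE 0.081, adjusted p = 2.46e-05) in Yap1 shRNA against GFP and 1.38 (SE 0.0776, adjusted p = 1.43e-08) in Yap1 WT against Yap1 shRNA. Since Cxcl1 changed far more, there were 0.466 Cxcl12 reads for each Cxcl1 read in Yap1 WT and 0.269 in Yap1 shRNA, against 17 in GFP.

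Among the membrane-anchored members, Cxcl16, the ligand of Cxcr6 and a scavenger receptor for oxidised lipoprotein, had 180, 190 and 182 CPM in Yap1 WT, 125, 156 and 139 CPM in Yap1 shRNA, and 40.6, 38.4 and 37.1 CPM in GFP. The groups did not overlap. The log2 fold change was 2.25 (SE 0.0748, edgeR adjusted p = 1.07e-10) in Yap1 WT against GFP, 1.85 (SE 0.0772, adjusted p = 1.87e-10) in Yap1 shRNA against GFP and 0.39 (SE 0.0713, adjusted p = 0.000347) in Yap1 WT against Yap1 shRNA. Zmynd15, on the other strand, overlaps Cxcl16 and averaged 5.61 CPM in Yap1 WT, 3.11 CPM in Yap1 shRNA and 1.52 CPM in GFP, a small fraction of the Cxcl16 level.

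Cx3cl1 (fractalkine), the ligand of Cx3cr1 on monocytes, had 118, 98.8 and 111 CPM in Yap1 WT, 46.0, 53.0 and 42.0 CPM in Yap1 shRNA, and 20.3, 20.5 and 17.0 CPM in GFP. The groups did not overlap. Cx3cl1 had a log2 fold change of 2.50 (SE 0.0982, edgeR adjusted p = 4.52e-10) in Yap1 WT against GFP, 1.29 (SE 0.108, adjusted p = 1.45e-07) in Yap1 shRNA against GFP and 1.22 (SE 0.0973, adjusted p = 2.63e-07) in Yap1 WT against Yap1 shRNA.

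Levels of different genes were compared in the authors' TPM, which scales for transcript length. In Yap1 WT the order by mean TPM was Cxcl1 (929 TPM), Cxcl10 (517), Cxcl16 (173), Cxcl3 (126), Cxcl12 (124), Cxcl6 (77.3), Cx3cl1 (50.3), Cxcl2 (19.7), Cxcl11 (14.5) and Cxcl9 (0.67). In that order the neighbours Cxcl3 and Cxcl12, and Cxcl2 and Cxcl11, overlapped between libraries. In Yap1 shRNA Cxcl1 (636 TPM) again led, followed by Cxcl16 (136), then Cxcl10 (98), Cxcl6 (83.9) and Cxcl3 (74.1), whose neighbouring ranges overlapped, and Cxcl12 (52.6). The lower end there was Cx3cl1 (22.4 TPM), Cxcl2 (16.9), Cxcl11 (2.42) and Cxcl9 (1.06), with no overlap between neighbours. In GFP the order began instead with Cxcl16 (32.4 TPM) and Cxcl12 (32.1), which overlapped, and went on with Cx3cl1 (7.92), Cxcl1 (5.84) and Cxcl10 (3.42), whose neighbouring ranges overlapped, and Cxcl11 (1.96). Cxcl3 (0.56 TPM), Cxcl6 (0.23) and Cxcl2 (0.0967) followed with overlapping ranges, and Cxcl9 was listed at 0.

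The summed TPM of the 10 members was 1936, 2041 and 2116 in Yap1 WT, 1151, 1162 and 1057 in Yap1 shRNA, and 89.3, 78.9 and 85.5 in GFP. The means were 24-fold the GFP mean in Yap1 WT and 13.3-fold in Yap1 shRNA. Neutrophil-attracting members made up 54.2% to 59.8% of that sum in Yap1 WT libraries. They made up 70% to 73.9% in Yap1 shRNA libraries, against 6.8% to 9.84% in GFP. The interferon-type members made up 22.4% to 28.5% in Yap1 WT, 8.31% to 10.2% in Yap1 shRNA and 4.91% to 7.72% in GFP. Cxcl12 and the 2 membrane-anchored genes together formed most of the GFP sum, with 36.6% to 39.7% from Cxcl12 and 44.2% to 50.7% from the membrane-anchored pair.

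**Figure D4:**
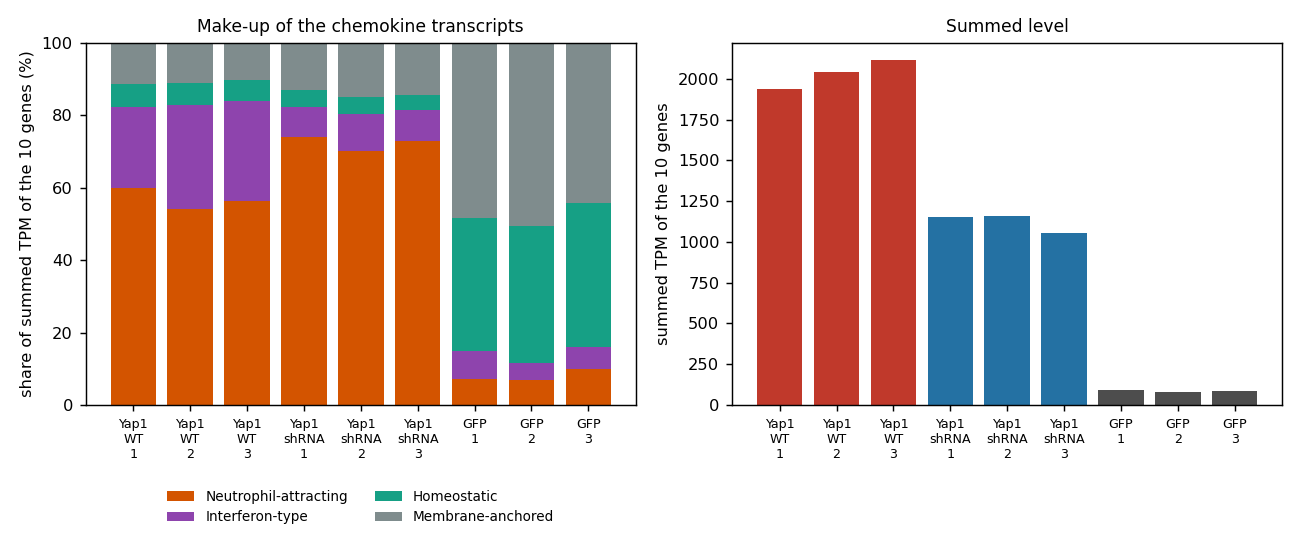
Left, share (%) of the summed TPM of the 10 chemokines that each class contributed in each library; right, the summed TPM. Bars are single libraries, with Yap1 WT, Yap1 shRNA and GFP from left to right. The neutrophil-attracting share is 54.2% to 73.9% in the Yap1 groups and at most 9.84% in GFP.

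The deposited coordinates (rn6, per the submitters' processing notes) place the members at 5 places. Cxcl11, Cxcl10 and Cxcl9 lie at chr14:17195395-17233743, and Cxcl2, Cxcl1, Cxcl3 and Cxcl6 lie at chr14:18731346-18920839. Within 250000 bases of the neutrophil-attracting cluster, 4 other genes were tested. Of these, 3 were higher in Yap1 WT than in GFP, against 32% of all genes. In Yap1 shRNA 2 were higher and 1 lower, against 39.2% and 39.1% of all genes. The log2 fold changes were at most 1.38 in Yap1 WT and 2 in Yap1 shRNA. The largest of these was Areg (amphiregulin, a ligand of the EGF receptor), with 8.1 CPM in Yap1 WT, 12.5 CPM in Yap1 shRNA and 3.1 CPM in GFP. Around the interferon-type cluster 9 other genes were tested. In Yap1 WT 4 were higher and 1 lower than in GFP, against 32% and 31.8% of all genes. In Yap1 shRNA 5 were higher and 3 lower, against 39.2% and 39.1%. The highest log2 fold changes in Yap1 WT and Yap1 shRNA were 1.29 and 2.22, both of Sdad1, and the lowest -1.80 and -3.98, both of Art3. Pf4, itself a CXC ligand, lies between Cxcl3 and Cxcl6 and had 0.931 CPM in Yap1 WT, 0.329 CPM in Yap1 shRNA and 0.705 CPM in GFP, too few counts to be tested.

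**Figure D5:**
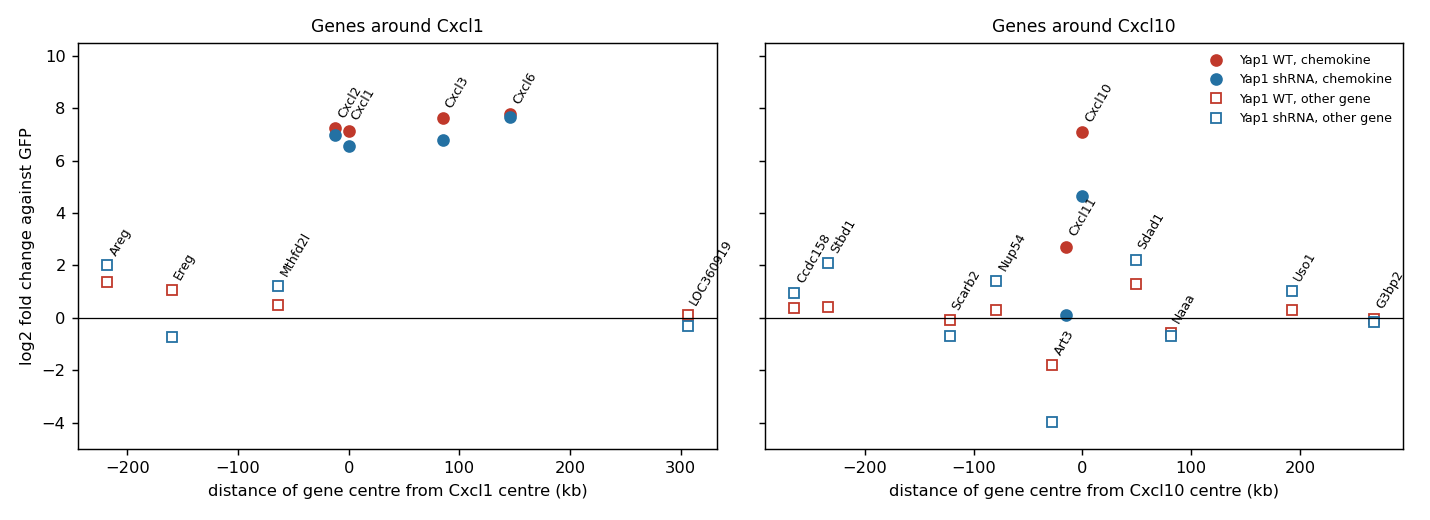
Log2 fold change against GFP of every tested gene within 250000 bases of the neutrophil-attracting cluster (left) and of the interferon-type cluster (right), by distance of its centre from the centre of Cxcl1 or Cxcl10 (kb). Red is Yap1 WT, blue is Yap1 shRNA, filled circles are chemokines and open squares are other genes. Open squares run from -3.98 (Art3 in Yap1 shRNA) to 2.22, while the chemokines other than Cxcl11 are at 4.64 or more.

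The genes whose levels followed each lead chemokine most closely were found by the root-mean-square (RMS) difference of centred log2 CPM over the 9 libraries, among 10931 genes averaging at least 5 CPM. For Cxcl1 they were Cxcl3 (RMS 0.308), Cxcl2 (0.41) and Lcn2 (0.432), which encodes the iron-binding protein lipocalin-2. Lcn2 averaged 205 CPM in Yap1 WT, 161 CPM in Yap1 shRNA and 1.39 CPM in GFP. For Cxcl10 they were Ifit3 (RMS 0.157), Irf7 (0.337) and Oasl (0.415), which are interferon-stimulated genes. Ifit3 averaged 151 CPM in Yap1 WT, 26.5 CPM in Yap1 shRNA and 1.14 CPM in GFP. For Cxcl12 they were LOC103690030 (RMS 0.146), the xanthine dehydrogenase gene Xdh (0.151) and Stat2 (0.157). Stat2 averaged 216 CPM in Yap1 WT, 91.5 CPM in Yap1 shRNA and 49.4 CPM in GFP.

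Of the 9 receptors in the table, 2 passed the count filter. Ackr3, the scavenging receptor for Cxcl12 and Cxcl11, averaged 43.0 ± 3.15 CPM in Yap1 WT, 32.9 ± 4.21 CPM in Yap1 shRNA and 18.0 ± 2.43 CPM in GFP (SD, n = 3 each). It rose by 1.26 on the log2 scale in Yap1 WT (SE 0.106, edgeR adjusted p = 3.91e-07) and by 0.87 in Yap1 shRNA (SE 0.116, adjusted p = 1.32e-05) against GFP. Cxcr4, the signalling receptor of Cxcl12, had 3.31, 4.28 and 4.36 CPM in Yap1 WT, 2.72, 4.22 and 3.22 CPM in Yap1 shRNA, and 1.67, 3.18 and 2.92 CPM in GFP. For Cxcr4 the log2 fold change was 0.62 in Yap1 WT against GFP (SE 0.245, edgeR adjusted p = 0.0423), a call kept in 12 of the 20 alternatives that gave a value, with adjusted p from 0.011 to 0.165. In Yap1 shRNA against GFP it was 0.38 (SE 0.278, edgeR adjusted p = 0.226). The leukocyte receptors Cxcr1, Cxcr2, Cxcr3, Cxcr5, Cxcr6 and Cx3cr1 and the scavenger Ackr1 each averaged at most 0.649 CPM in any group. Cx3cr1 was at 0 in Yap1 WT, Cxcr1, Cxcr2, Cxcr6 and Cx3cr1 were at 0 in Yap1 shRNA, and Cxcr2 and Cxcr6 were at 0 in GFP.

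The other CXC ligands in the table were near the limit of detection, and none was tested. Cxcl13 averaged 0.312 CPM in Yap1 WT, 0.163 CPM in Yap1 shRNA and 0.0227 CPM in GFP. Cxcl14 averaged 0.114, 0.163 and 0.136 CPM in Yap1 WT, Yap1 shRNA and GFP. Cxcl17 had 21 counts in the Yap1 WT group, 1 in Yap1 shRNA and 0 in GFP.

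Cytokines and receptors known to induce chemokines were listed as 18 genes, of which 15 were tested. In Yap1 WT 13 were higher and 0 lower than in GFP, against 32% of all genes higher. In Yap1 shRNA 9 were higher and 3 lower than in GFP, against 39.2% higher and 39.1% lower. Of the tested genes Tnf, Il1a, Il1b and Il6 averaged at most 0.296 CPM in GFP, under the filter's level, and so had to be higher. The 3 lower genes were Il1r1, the interleukin-1 receptor, Ifngr2, a chain of the interferon-gamma receptor, and Tlr4, the receptor for lipopolysaccharide, at -0.27, -0.49 and -0.69 on the log2 scale, and with upper quartile scaling 5 genes were lower. Tlr2, a receptor for bacterial lipopeptides, averaged 77.9 ± 3.30 CPM in Yap1 WT, 37.1 ± 1.99 CPM in Yap1 shRNA and 4.08 ± 0.0516 CPM in GFP (SD, n = 3 each). Il6 averaged 13.5 CPM in Yap1 WT, 6.34 CPM in Yap1 shRNA and 0.206 CPM in GFP, and Il1a averaged 13.0, 8.03 and 0.296 CPM in the same order. Tnf had 254 counts in the Yap1 WT group, 31 in Yap1 shRNA and 8 in GFP, and it was higher in Yap1 WT than in Yap1 shRNA by 2.08 on the log2 scale (SE 0.316, edgeR adjusted p = 8.36e-05). Ifnb1 was at 0 in Yap1 shRNA and in GFP, and Il17a was at 0 in Yap1 WT and in GFP.

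All 11 NF-kappa-B factors and feedback genes were higher in Yap1 WT than in GFP, against 32% of all genes. In Yap1 shRNA 7 were higher and 1, Nfkb2, lower, against 39.2% and 39.1%, and on TPM none was lower. Their median log2 fold change was 0.80 in Yap1 WT and 0.66 in Yap1 shRNA. Nfkbiz, a nuclear co-activator of NF-kappa-B, averaged 79.9 ± 1.35 CPM in Yap1 WT, 120 ± 4.54 CPM in Yap1 shRNA and 11.1 ± 1.53 CPM in GFP (SD, n = 3 each). It was lower in Yap1 WT than in Yap1 shRNA, with a log2 fold change of -0.58 (SE 0.0694, edgeR adjusted p = 1.03e-05), opposite in sign to Cxcl1 and Cxcl3. Rel, an NF-kappa-B subunit, was also lower there, with a log2 fold change of -1.20 and 7.78 CPM in Yap1 WT and 17.9 CPM in Yap1 shRNA. Nfkbia, the inhibitor that NF-kappa-B induces, averaged 74.7 CPM in Yap1 WT, 58.4 CPM in Yap1 shRNA and 16.6 CPM in GFP. Tnfaip3, a ubiquitin-editing inhibitor of the pathway, averaged 34.5, 33.9 and 8.76 CPM in the same order.

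Of 8 IRF and STAT factors, which act in interferon induction and response, 7 were higher and 1 lower in each of the comparisons with GFP, against 32% and 31.8% of all genes in Yap1 WT and 39.2% and 39.1% in Yap1 shRNA. The lower one was Irf3, at -0.29 in Yap1 WT and -0.81 in Yap1 shRNA on the log2 scale, and the Yap1 WT call was lost with library size alone and on both TPM scales. Irf7, a master regulator of interferon genes, averaged 346 ± 71.4 CPM in Yap1 WT, 108 ± 27.1 CPM in Yap1 shRNA and 3.56 ± 0.947 CPM in GFP (SD, n = 3 each). Its log2 fold change was 6.60 in Yap1 WT and 4.92 in Yap1 shRNA against GFP, beside 7.08 and 4.64 for Cxcl10. Irf9, a partner of Stat2, averaged 74.6 CPM in Yap1 WT, 62.4 CPM in Yap1 shRNA and 17.7 CPM in GFP. Irf8, among the 7 higher, had a lowest GFP library of 0.744 CPM, under the filter's level. It passed the filter only through the Yap1 groups, so its differences from GFP are descriptions.

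Chemokine messages carry AU-rich elements, and 7 RNA-binding proteins that shorten or prolong their life were listed. In Yap1 WT 5 were higher and 0 lower than in GFP, against 32% of all genes higher, and in Yap1 shRNA 6 were higher and 0 lower, against 39.2%. Zc3h12a, the RNase Regnase-1, averaged 142 ± 7.43 CPM in Yap1 WT, 128 ± 7.61 CPM in Yap1 shRNA and 24.4 ± 2.14 CPM in GFP (SD, n = 3 each). Hnrnpd, which binds AU-rich elements, averaged 94.7 CPM in Yap1 WT, 227 CPM in Yap1 shRNA and 85.8 CPM in GFP, and Elavl1, a stabilising protein, averaged 50.5, 80.9 and 37.0 CPM in the same order. Both were lower in Yap1 WT than in Yap1 shRNA, with log2 fold changes of -1.26 and -0.68.

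Among 8 proteases and helpers that shed or trim chemokines, 4 were higher and 0 lower in Yap1 WT than in GFP, against 32% and 31.8% of all genes. In Yap1 shRNA 4 were higher and 4 lower, a share near the 39.2% and 39.1% of all genes. Adam17, which releases Cx3cl1 and Cxcl16 on stimulation, averaged 100 ± 2.72 CPM in Yap1 WT, 112 ± 3.06 CPM in Yap1 shRNA and 55.7 ± 2.90 CPM in GFP (SD, n = 3 each). Rhbdf2, its maturation partner iRhom2, averaged 45.3 CPM in Yap1 WT, 49.1 CPM in Yap1 shRNA and 17.8 CPM in GFP. Adam10, the constitutive sheddase, averaged 79.4 CPM in Yap1 WT, 51.9 CPM in Yap1 shRNA and 78.3 CPM in GFP, and its log2 fold change was 0.02 in Yap1 WT (SE 0.0725, edgeR adjusted p = 0.822) and -0.59 in Yap1 shRNA (SE 0.0796, adjusted p = 1.41e-05) against GFP. Mmp9, a gelatinase, averaged 6.58 CPM in Yap1 WT, 26.9 CPM in Yap1 shRNA and 1.34 CPM in GFP.

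Leukocyte markers were also measured. Summed CPM of the 5 neutrophil markers in the table was 0.828 to 1.37 in Yap1 WT, 1.45 to 2.40 in Yap1 shRNA and 0.677 to 0.833 in GFP, and Mmp8 was at 0 in both Yap1 groups. Camp, the cathelicidin gene and the only neutrophil marker that passed the count filter, had 7, 9 and 11 counts in Yap1 WT, 12, 8 and 8 counts in Yap1 shRNA, and 3, 0 and 0 counts in GFP. Its GFP values, at most 0.208 CPM, lay under the filter's level, and it passed through the Yap1 shRNA libraries. Its differences from GFP, called higher in both Yap1 groups, are therefore given as descriptions, with no test. With counts thinned to the smallest library, 0 neutrophil markers were called higher. The 9 macrophage markers summed to 53.7 to 56.6 CPM in Yap1 WT, 27.8 to 36.3 CPM in Yap1 shRNA and 39.8 to 44.7 CPM in GFP, with C1qb and C1qc at 0 in Yap1 shRNA. Of the 7 tested, 2 were higher and 1 lower in Yap1 WT than in GFP, against 32% and 31.8% of all genes. In Yap1 shRNA 1 was higher and 3 lower, against 39.2% and 39.1%. Adgre1, the F4/80 antigen, averaged 12.2 CPM in Yap1 WT, 5.23 CPM in Yap1 shRNA and 2.57 CPM in GFP. C1qa averaged 0.367, 0.160 and 1.46 CPM in the same order. It reached the filter's level only in GFP and so had to be lower in both Yap1 groups. Fcer1g and Cd68 were lower in Yap1 shRNA, at -1.11 and -0.67 on the log2 scale. Lymphocyte markers summed to at most 6.25 CPM in any library.

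Markers of resident cells moved as well. The 8 endothelial markers summed to 58.3 to 62.4 CPM in Yap1 WT, 64.3 to 71.4 CPM in Yap1 shRNA and 42.4 to 44.5 CPM in GFP, with 4 of the 7 tested higher and 1, Esam, lower in Yap1 WT, and 6 higher and 1, Tek, lower in Yap1 shRNA. The Tek call was lost in 6 of the 21 alternatives, among them DESeq2. Vwf and Cdh5, higher in both Yap1 groups, had GFP libraries down to 0.272 and 0.68 CPM, under the filter's level. They passed the filter only through the Yap1 groups, so their differences from GFP are descriptions, with no test. Summed smooth muscle and pericyte markers were 3776 to 5159 CPM in Yap1 WT, 3419 to 3827 CPM in Yap1 shRNA and 8785 to 9273 CPM in GFP. All 10 cardiomyocyte markers were lower in both Yap1 groups than in GFP, and 5 of 9 fibroblast markers were lower in Yap1 WT (3 with library size alone) and 8 of 9 in Yap1 shRNA. The fibroblast markers Dcn, Lum and Pdgfra were higher in Yap1 WT, at 1.89, 1.01 and 0.36 on the log2 scale, and Dcn was higher in Yap1 shRNA at 1.80. Pdgfra overlapped between Yap1 WT and GFP (edgeR adjusted p = 0.0286). With a library left out, 2 to 3 fibroblast markers were higher in Yap1 WT. Of all genes, 32% were higher and 31.8% lower in Yap1 WT, and 39.2% higher and 39.1% lower in Yap1 shRNA. The part of these shifts in the chemokine levels was not tested.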

How the data were processed

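Messenger RNA was enriched with oligo(dT) beads, made into libraries and sequenced on a BGISEQ-500, per the labels' protocols. Per the submitters' processing notes the build was rn6, and the tools, whose roles are not given, were RSEM 1.3.1, HISAT2, DESeq2 1.4.5 and Bowtie2. The authors deposited expected counts per gene, TPM scaled within each library, and log2 fold changes with p-values and q-values, per the file headers. The headers of those fold changes name the groups in the opposite order to the one in which the values run. Virus groups were taken from the labels, and Ad-GFP cells without glucose and insulin were not analysed here.

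Expected counts were rounded and fitted over all 9 libraries in edgeR 4.0.16 (R 4.3.3) with TMM scaling, filterByExpr (13708 genes left) and group as the only factor. SE is the size of the log2 fold change divided by the square root of F. Alternatives used DESeq2 1.42.0, limma 3.58.1, other scalings and filters, TPM with a pseudocount of 1 or 0.1, thinned counts, and libraries left out. Motifs were searched on both strands of RefSeq windows (GRCr8). The comparisons were tested on simulated data in which few genes were changed. Such data cannot check the scaling where most genes differ, as they do here. The members and gene lists were chosen with earlier results of these data known. Genes named were all members, receptors and CXC ligands, those a result turns on, and the 3 nearest to Cxcl1, Cxcl10 and Cxcl12. From each pathway list, genes were drawn from the 3 with the lowest p in each comparison with GFP. Rela, Stat3, Zfp36 and Mmp2 also ranked there and are not described. Named outside that rule, after their values were seen, were Tnf, Rel, Adam10, the leukocyte, endothelial and fibroblast markers named, and the genes near or overlapping the members. Marker lists are given by counts and sums. One result is not reported here.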

Additional observations from a re-analysis of the deposited data

How the results depend on the processing

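The number of members called stayed within 1.5 times under all 21 alternatives in each comparison, as did the number of all genes called. Leaving out each library in turn, 9 to 9 members were called in Yap1 WT against GFP, 8 to 8 in Yap1 shRNA against GFP and 7 to 8 in Yap1 WT against Yap1 shRNA. The counts against GFP include Cxcl2, Cxcl3 and Cxcl6, which passed the filter only through the Yap1 groups and so had to differ from GFP. Of 567 recomputed member fold changes, 561 kept their direction and side of the threshold, 5 reversed and 1 became called, all in Cxcl11, Cxcl6 or Cxcl2. The 567 include the values of Cxcl2, Cxcl3 and Cxcl6 against GFP, whose outcome the filter fixed. Cxcl11 in Yap1 shRNA against GFP was -0.04872 with upper quartile scaling and ranged from -0.14 to 0.29 when a library was left out. Cxcl6 in Yap1 WT against Yap1 shRNA was -0.10 on log2(TPM + 1) and -0.10 on log2(TPM + 0.1), and ranged from -0.02522 to 0.21 when a library was left out. Its TPM per CPM varied within groups, and the cause was not tested. The folds of Cxcl2, Cxcl3 and Cxcl6 over GFP rest on few GFP counts: on log2(TPM + 1) Cxcl2 in Yap1 WT was 4.22, against 7.25 in edgeR, and without GFP replicate 3 it was 8.04. On log2(TPM + 1) the Yap1 WT values of Cxcl3 and Cxcl6 were 6.35 and 5.997.

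Correlations of deviations ran from -0.018 to 0.119 in same-numbered pairs and from -0.109 to 0.0589 in other pairs. Any pairing by replicate number was thus weak, and a weak pairing is not excluded. Over 0.1 was 1 of 9 same-numbered pairs, and 3 of 9 libraries correlated best with their own number in both other groups. With replicate number as a block, 9, 8 and 7 members were called in the 3 comparisons, as without it. The counts against GFP again include Cxcl2, Cxcl3 and Cxcl6, which had to differ from GFP. Against 8751, 10733 and 8562 genes without the block, 8812, 10752 and 8590 were called with it. The median gene shifted by over 0.1 with library size alone (0.138 in Yap1 WT against GFP and 0.152 in Yap1 WT against Yap1 shRNA), with upper quartile scaling (-0.152 in Yap1 shRNA against GFP and 0.176 in Yap1 WT against Yap1 shRNA) and on log2(TPM + 1) (0.136 and 0.156 in Yap1 WT and Yap1 shRNA against GFP). With library size alone 5637 genes were higher and 3344 lower in Yap1 WT against GFP, where TMM gave 4391 and 4360. On log2(TPM + 1) they were 5419 and 2894. In Yap1 WT against Yap1 shRNA upper quartile scaling gave 5561 higher and 3467 lower, where TMM gave 4273 and 4289. Low counts limit Cxcl9, which was not tested, and Cxcl2, which has the largest SE of the tested members against GFP (0.361 in Yap1 WT and 0.387 in Yap1 shRNA).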

Other observations

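Near Cx3cl1, Ccl22, a chemokine of the CC family that attracts regulatory T cells through Ccr4, had 1.13 CPM in Yap1 WT, 7.74 CPM in Yap1 shRNA and 0.137 CPM in GFP. It was lower in Yap1 WT than in Yap1 shRNA, with a log2 fold change of -2.76 (edgeR adjusted p = 1.1e-06), opposite in sign to Cx3cl1. Nlrc5, an activator of class I antigen presentation genes in the same region, had 10.7 CPM in Yap1 WT, 4.02 CPM in Yap1 shRNA and 1.09 CPM in GFP. Of the 13 genes tested within 250000 bases of Cx3cl1, 5 were higher and 4 lower in Yap1 WT and 7 were higher and 5 lower in Yap1 shRNA than in GFP. The shares of all genes were 32% higher and 31.8% lower in Yap1 WT and 39.2% higher and 39.1% lower in Yap1 shRNA. The higher genes include Ccl22 and Adgrg3, which averaged 0.137 and 0.068 CPM in GFP, under the filter's level. Both passed the filter only through the Yap1 groups, so their differences from GFP are descriptions, with no test.

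For each CPM of Cxcl6 the authors' tables gave 1.16, 1.13 and 1.26 TPM in Yap1 WT, 1.64, 1.21 and 1.63 TPM in Yap1 shRNA, and 1.37, 0.512 and 0.498 TPM in GFP. For Cxcl1 the same quotient was 1.95, 1.91 and 1.90 in Yap1 WT, 2.22, 2.10 and 2.12 in Yap1 shRNA, and 1.91, 1.86 and 1.87 in GFP. Cxcl6 is listed with 5 transcripts and Cxcl1 with 2, and the GFP quotients of Cxcl6 rest on 5, 3 and 4 counts.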
